A study of Mus musculus with 4 samples.

Results

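Pyrimidine and deoxynucleotide synthesis was followed through 10 genes, Cad, Dhodh, Umps, Ctps, Uck2, Rrm1, Rrm2, Tk1, Dck and Dut, taken by symbol from the platform annotation. All 10 were on the array, and 28 of the 45037 probe sets that are not controls carried 1 of these symbols alone, out of 18193 genes so named. RNA of cells carrying both CD4 and CD8 (double-positive, DP) was measured on 4 Affymetrix Mouse 430 2.0 arrays. The 2 normal arrays held DP cells of thymus from mice of genotype WT. The 2 tumour arrays held DP cells of a peripheral tumour (thymoma) that over-expressed Notch1-IC, the signalling fragment of the receptor Notch1, from mice of a genotype labelled T-ALL (T-cell acute lymphoblastic leukaemia). The genetic background of all 4 was labelled WT C57/BLACK6, and 1 label field calls the 2 normal samples tumour cells, against their titles, sources and genotypes. The sources used here give neither the age of the mice, nor what drives Notch1-IC, nor how the cells were sorted, nor whether replicate arrays stand for separate animals. The p-values thus reflect no more than the scatter among these 4 samples, and that scatter could be technical.

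Cells make pyrimidines from glutamine, bicarbonate and aspartate by the de novo route. Cad carries its first steps, Dhodh, on the inner mitochondrial membrane, oxidizes dihydroorotate, Umps makes UMP, and Ctps turns UTP into CTP. Ribonucleotide reductase, built from the large subunit Rrm1 and the small subunit Rrm2, reduces ribonucleotides to deoxyribonucleotides for DNA. Dut cleaves dUTP, which keeps uracil out of DNA and supplies dUMP for thymidylate. The salvage kinases Uck2 (uridine and cytidine), Tk1 (thymidine) and Dck (deoxycytidine and other deoxynucleosides) recover nucleosides instead. In the thymus, small DP cells are mostly resting, whereas DP blasts and leukaemic cells divide, and cells entering S phase usually raise Rrm2 and Tk1.

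Before the results, the arrays themselves were compared. Notch1 had an intensity of 1104 and 1098 on the normal arrays and of 7155 and 6417 on the tumour arrays, and whether the probe set also detects the introduced sequence is not known. Of 13 measured DP thymocyte markers, 11 were lower in the tumour arrays and 0 higher, with Cd8a at 9074 and 8383 on the normal arrays and still at 1287 and 1310 on the tumour arrays, far above background. Control probe sets for the 3' and 5' ends of a transcript gave a higher 3' to 5' ratio in the tumour arrays, at 2.49 ± 0.051 against 1.24 ± 0.056 (SD, n = 2) for beta-actin and at 1.85 ± 0.0057 against 0.905 ± 0.011 for Gapdh. Markers of other cells moved too. Of 14 macrophage and monocyte markers, 10 were higher and 0 lower, with a summed intensity of 168 to 202 on the normal and 3017 to 3144 on the tumour arrays, while Marco stayed at or below 2.57 on every array. Of 11 neutrophil markers 8 were higher and 0 lower, with summed intensities of 210 to 275 and 2196 to 2241, while 1 of 8 B cell markers was higher and 1 lower, 1 of 5 erythroid markers higher and 0 lower, and 1 of 11 stromal markers higher and 2 lower. Among all genes, 16.3% were higher and 11.7% lower. In bulk arrays, fewer cells of a type and less RNA per cell cannot be told apart. Tissue site cannot be told apart from transformation either, and the part of these differences in the results below was not tested.

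In the tumour arrays, the enzymes at the start and at the CTP end of the de novo route rose, while Umps and Tk1 did not pass the test. Each gene was read first from its most intense probe set. By that reading Cad, Ctps, Uck2, Dhodh, Rrm1 and Dut rose, and Umps, Rrm2, Tk1 and Dck did not pass. That is 6 of 10 genes higher and 0 lower (limma with a trended and robust prior, adjusted p below 0.05 over all 45037 probe sets), against 16.3% higher and 11.7% lower among all genes. Dim genes rarely pass, so the closer comparison is with the 6364 genes whose mean log2 intensity reached 7, as that of all members but Dhodh did. Of those, 30.6% were higher and 26.9% lower. The members' median log2 fold change was 0.43, against 0.09 over all genes. Over all 28 probe sets, 10 were higher and 5 lower, against 11.3% and 11.5% of all probe sets. Dim probe sets weigh on those shares too. A fit of only the 26100 probe sets above background on at least 2 arrays called 5466 higher and 5631 lower. Of the 24 member probe sets in that fit, 10 were higher and 5 lower. Both tumour arrays lay above both normal arrays for 15 of the 28 and below them for 5, against 27.6% and 29.1% of all probe sets. Of the 28, 23 were above the background level on all 4 arrays, and these held all 15 calls. The calls depend on how the variance is shared between probe sets, since limma's default prior gave 0 calls over all probe sets (before adjustment, p was below 0.05 for 5479 higher and 5858 lower ones), and called only Cad and Ctps among the 10 when 1 probe set per gene was tested. They also depend on scaling, since BioB, BioC and BioD hybridization controls lay 0.60 higher (log2) in the tumour arrays, and scaling to them left Cad, Ctps and Uck2 higher and put Umps, Rrm2, Tk1, Dck and Dut lower. The probe set read for a gene mattered as well. Averaging those above background gave 5 of 10 genes higher and 3 lower, Rrm1, Rrm2 and Dck. Reading the second most intense gave 2 of 8 higher and the same 3 lower. Both readings were chosen after seeing the data.

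**Figure D1:**
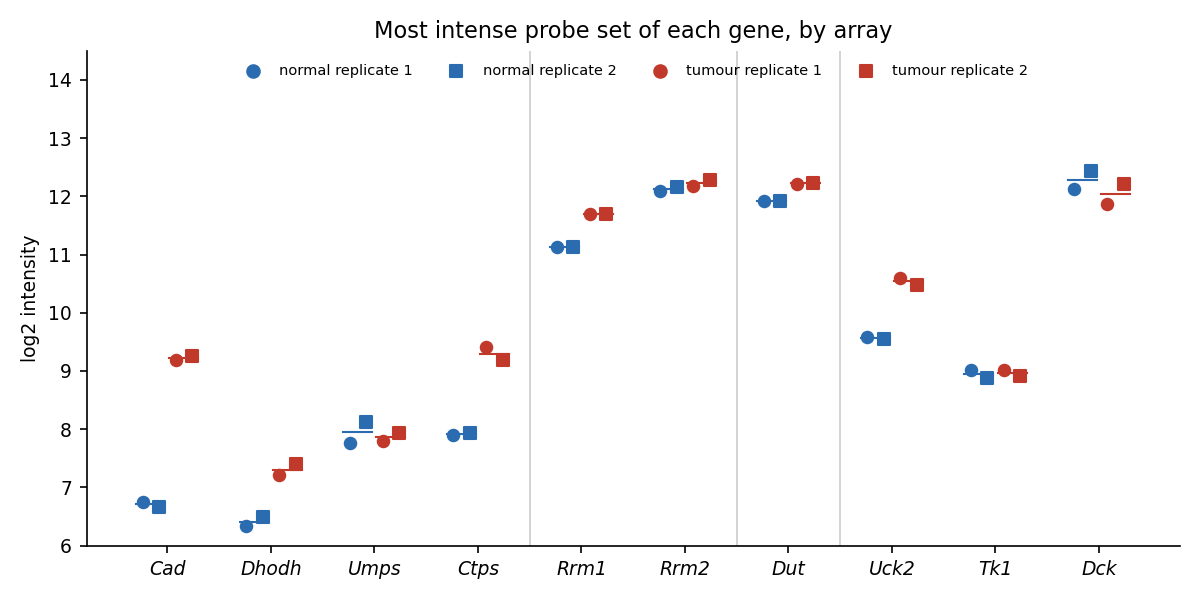
Log2 intensity of the most intense probe set of each gene on each array (blue for normal, red for tumour; circles for replicate 1, squares for replicate 2; lines for group means), ordered as de novo enzymes, ribonucleotide reductase, dUTP hydrolysis and salvage kinases. Cad, Ctps and Uck2 separate widest, whereas Umps, Tk1 and Dck overlap between groups; heights are not comparable between genes, and Rrm1, Rrm2, Tk1 and Dut change sign when arrays are scaled to the hybridization controls.

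Cad, which carries the opening activities of the route in a single chain, had the largest fold change among the 10. Its most intense probe set read 107.5 and 101.8 on the normal arrays and 583.8 and 614.2 on the tumour arrays. The groups lay far apart, and the log2 fold change was 2.52 ± 0.13 (SE, n = 2 arrays per group), a 5.72-fold rise (limma adjusted p = 1.18e-06). Only 4.54% of all genes had a larger log2 fold change. A second Cad probe set gave 2.19 ± 0.15 (adjusted p = 5.42e-06), and the last lay at or below background on all 4 arrays. With the hybridization controls as the scale, the rise of Cad was 1.92.

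Ctps, which makes CTP from UTP with glutamine as the nitrogen donor, was measured by 1 probe set. It read 239.5 and 245.7 on the normal arrays and 677.8 and 585.9 on the tumour arrays. Both tumour values lay far above the normal ones, and the log2 fold change of 1.38 ± 0.12 was a 2.60-fold rise (limma adjusted p = 2.83e-05). It was 0.78 on the scale of the hybridization controls (adjusted p = 0.000752).

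Dhodh rose less. It read 80.53 and 90.22 on the normal and 147.9 and 169.6 on the tumour arrays, without overlap, which gave a log2 fold change of 0.89 ± 0.19 (limma adjusted p = 0.0063). Its other probe set gave 0.99 ± 0.25 (adjusted p = 0.018). The call of Dhodh was lost when normal replicate 1 was left out (adjusted p = 0.0585), when tumour replicate 2 was (adjusted p = 0.0611), and on the scale of the hybridization controls (0.29, adjusted p = 0.311).

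Umps, between them on the route, read 216.8 and 280.6 on the normal and 222.3 and 244.8 on the tumour arrays, so that the groups overlapped. Its log2 fold change was -0.08 ± 0.16, with a 95% interval of -0.44 to 0.28 (limma adjusted p = 0.797). A second probe set gave 0.16 ± 0.18, and 2 others lay near or below background. The interval of Umps lies below the intervals of Cad (2.22 to 2.81), Ctps (1.11 to 1.65) and Dhodh (0.47 to 1.31). On the scale of the hybridization controls Umps was lower by that common shift, at -0.68 (adjusted p = 0.0124).

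The 2 subunits of ribonucleotide reductase gave different answers on different probe sets. For Rrm1, the large subunit with the allosteric sites, probe set 1415878_at read 2245 and 2248 on the normal arrays and 3319 on both tumour arrays. That was a log2 fold change of 0.56 ± 0.064 (limma adjusted p = 0.000149), which became -0.038 on the scale of the hybridization controls. Probe set 1448127_at of Rrm1 instead read 649.0 and 623.9 on the normal and 323.2 and 334.8 on the tumour arrays. It fell by 0.95 on the log2 scale (SE 0.11, adjusted p = 0.000132), so that both probe sets separated the groups, in opposite directions. A last Rrm1 probe set was above background on 1 tumour array alone.

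Rrm2, the small subunit whose level limits the enzyme in the cell cycle, showed the same kind of spread. Probe set 1434437_x_at, of a class that may bind other transcripts, read 4368 and 4602 on the normal and 4635 and 4947 on the tumour arrays. Both tumour values lay just above the normal ones, and the log2 fold change was 0.10 ± 0.062 with a 95% interval of -0.05 to 0.24 (limma adjusted p = 0.352). Probe set 1448226_at read 2484 and 2631 against 1933 and 1921, a log2 fold change of -0.41 ± 0.070 (adjusted p = 0.00201). Probe set 1416120_at read 1784 and 1644 against 608.3 and 632.2, a log2 fold change of -1.47 ± 0.088 (adjusted p = 2.94e-06). No probe set of Rrm2 rose, and under every scaling run the last 2 stayed lower.

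The promoters of the 2 reductase subunits are shown because, of the 10 windows that RefSeq gave for 9 of the members (none for Dhodh), they were the 2 that held the letters CCAAT, the core bound by the factor NF-Y. Each window holds the 250 bases before the annotated start (RefSeq, GRCm38.p6), 5' to 3' on the gene's strand, with CCAAT in capitals. Rrm1 lies on the plus strand at chr7:102441445-102441694 and Rrm2 on the plus strand at chr12:24708004-24708253.
Rrm1: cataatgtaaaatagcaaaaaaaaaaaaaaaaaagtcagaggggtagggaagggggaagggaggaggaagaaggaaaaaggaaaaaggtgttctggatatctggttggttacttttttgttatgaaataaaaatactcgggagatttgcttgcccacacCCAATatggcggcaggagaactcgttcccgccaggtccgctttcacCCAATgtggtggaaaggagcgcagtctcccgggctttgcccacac
Rrm2: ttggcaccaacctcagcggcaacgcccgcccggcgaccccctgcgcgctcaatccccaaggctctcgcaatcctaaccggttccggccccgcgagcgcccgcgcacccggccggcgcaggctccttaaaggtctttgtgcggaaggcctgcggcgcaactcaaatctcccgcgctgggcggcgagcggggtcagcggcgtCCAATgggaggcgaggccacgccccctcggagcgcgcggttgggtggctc
The first base of the match lies 91 and 45 bases before the start in Rrm1 and 50 bases before it in Rrm2. Searched on both strands, CCAAT stood in 33.8% of all 32851 windows of the same length. The letters CACGTG (the E-box bound by MYC), TTTCCCGC and TTTGGCGC (forms of the E2F site) stood in 0 of the 10 member windows, against 6.0%, 0.9% and 0.4% of all windows. TGGGAA, letters of the site bound by the Notch partner RBPJ, stood in 1, that of Uck2, against 21.6%. These counts describe the windows only.

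Dut, the dUTPase, rose slightly. Its most intense probe set read 3897 and 3859 on the normal and 4743 and 4814 on the tumour arrays, close within each group and apart between them. The log2 fold change was 0.30 ± 0.057 (limma adjusted p = 0.00351) and turned to -0.30 on the scale of the hybridization controls. Leaving out either tumour array ended the call, with an adjusted p of 0.0590 for replicate 1 and of 0.0735 for replicate 2 left out. The other probe set of Dut gave 0.58 ± 0.23 (adjusted p = 0.116).

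The salvage kinases went different ways. Uck2, which phosphorylates uridine and cytidine, read 770.4 and 746.5 on the normal and 1556 and 1421 on the tumour arrays. It rose by 0.97 ± 0.088, a 1.96-fold difference (limma adjusted p = 3.62e-05), and by 0.37 on the scale of the hybridization controls. Of its 6 probe sets, 2 others rose to the same extent (1.05 ± 0.11 for 1426909_at and 1.05 ± 0.12 for 1457980_x_at). Another, 1448604_at, read 522.8 and 548.6 against 529.2 and 549.9, with a log2 fold change of 0.01 ± 0.10. The remaining pair were 1439741_x_at, which did not pass (0.60 ± 0.24, adjusted p = 0.110), and 1 probe set below background on all 4 arrays. Without probe sets of the classes that may bind several transcripts, 1448604_at stood for Uck2 and the call of the gene was lost (adjusted p = 0.964), although 1426909_at, which is not of those classes, rose as given above.

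Tk1, the thymidine kinase of dividing cells, did not separate the groups. Its 1 probe set read 516.7 and 471.5 on the normal arrays and 519.0 and 484.8 on the tumour arrays. The log2 fold change was 0.02 ± 0.11, with a 95% interval of -0.22 to 0.27 (limma adjusted p = 0.921), and it was -0.58 on the scale of the hybridization controls (adjusted p = 0.00204).

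Dck, the kinase that starts salvage of deoxycytidine, was the member with the largest falls, again on some of its probe sets. Probe set 1439012_a_at read 4465 and 5524 on the normal and 3720 and 4755 on the tumour arrays, so that the groups overlapped (-0.24 ± 0.12, 95% interval -0.52 to 0.04, limma adjusted p = 0.221). Probe set 1449176_a_at read 1702 and 2029 against 673.0 and 792.4, a log2 fold change of -1.35 ± 0.11 (adjusted p = 2.27e-05). Probe set 1428838_a_at read 945.1 and 975.0 against 200.2 and 203.6. Its log2 fold change of -2.25 ± 0.11 was a 4.76-fold fall (adjusted p = 6.77e-07). All 3 Dck probe sets had negative log2 fold changes under every scaling run. As deposited 2 of them passed, and on the scale of the hybridization controls 1439012_a_at passed too (-0.84, adjusted p = 0.00207).

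**Figure D2:**
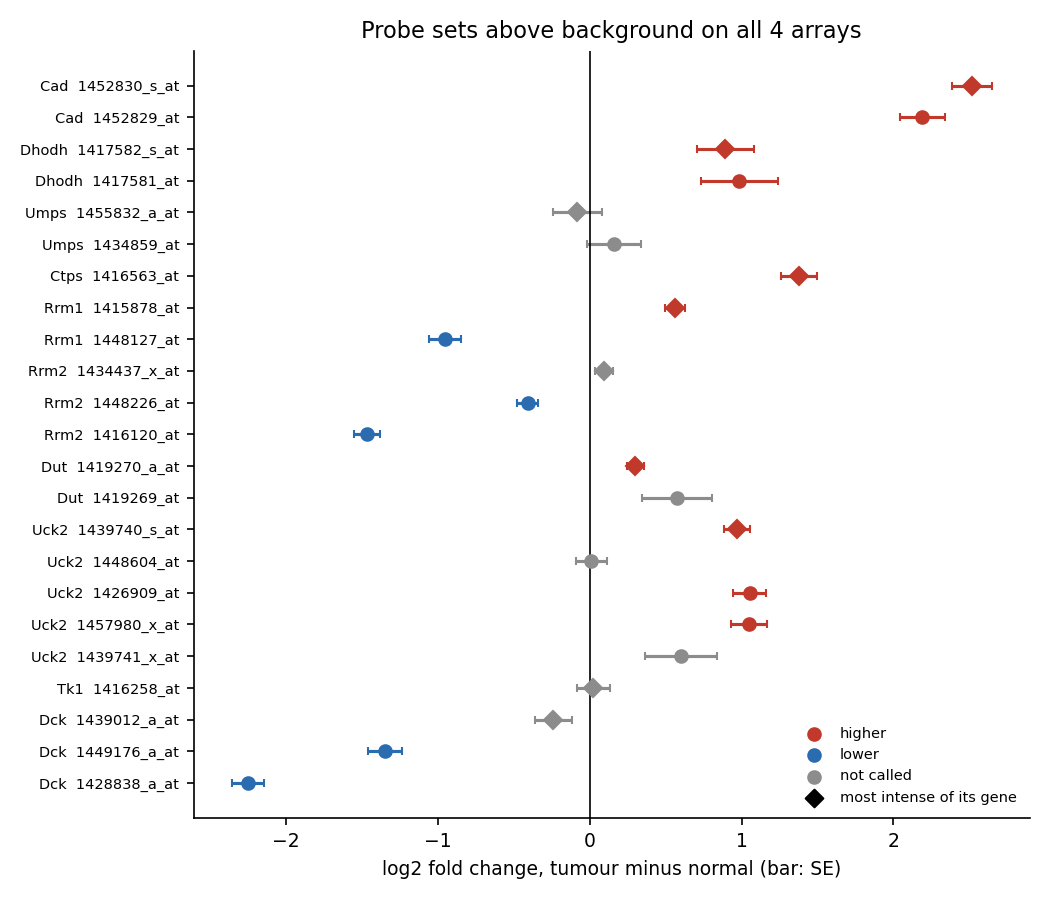
Log2 fold change, tumour minus normal, with its SE (horizontal axis) for the 23 member probe sets above background on all 4 arrays, coloured by call; diamonds mark the most intense probe set of each gene. Both Cad and both Dhodh probe sets lie to the right, Rrm1 has 1 call on each side, and 2 probe sets each of Rrm2 and Dck lie to the left; scaling to the hybridization controls moves every point 0.60 to the left.

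The spread within genes was also expressed as a ratio, in a calculation added after these values had been seen. Each shift is the difference between 2 fold changes of the same gene, so it gives that difference an error and is no independent support for it. On each array the log2 ratio of a gene's most intense probe set to each of its other probe sets above background was taken, and its shift between groups was fitted with limma over 7339 such pairs. In Rrm1 the ratio was 1.79 and 1.85 on the normal and 3.36 and 3.31 on the tumour arrays, a shift of 1.52 ± 0.15 (adjusted p = 2.4e-06). The shift was 0.50 ± 0.11 and 1.56 ± 0.14 for the 2 other probe sets of Rrm2 (adjusted p = 0.00232 and 5.27e-07). It was 1.11 ± 0.13 and 2.01 ± 0.17 for those of Dck (adjusted p = 8.37e-06 and 5.08e-07) and 0.96 ± 0.15 for probe set 1448604_at of Uck2 (adjusted p = 0.000143). The remaining 7 of the 13 member pairs, those of Cad, Dhodh, Umps and Dut among them, did not pass. Scaling cancels in these ratios. A shift past the threshold was found in 42.7% of all pairs, so 6 of 13 is near that background. Of the pairs past the threshold, the less intense probe set was lower in the tumour arrays relative to the most intense one in 2106 and higher relative to it in 1030. Over all pairs the median shift was 0.20, beside the higher 3' to 5' ratios given above. The sources used here do not place the probe sets within transcripts, and the part of RNA quality or of transcript forms in these shifts was not tested. With the values as deposited, Rrm1 alone among the 8 members with at least 2 probe sets above background had probe sets called in opposite directions. The same held for 351 of all 4373 such genes (8.03%), so 1 of 8 is near that background. On the scale of the hybridization controls Uck2 had calls in opposite directions (0.37 and -0.59 for 1448604_at) and Rrm1 did not. As deposited, for Rrm2 and Dck, 2 probe sets of each were called lower and the most intense one was not called, whereas both probe sets above background were called higher for Cad and for Dhodh.

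**Figure D3:**
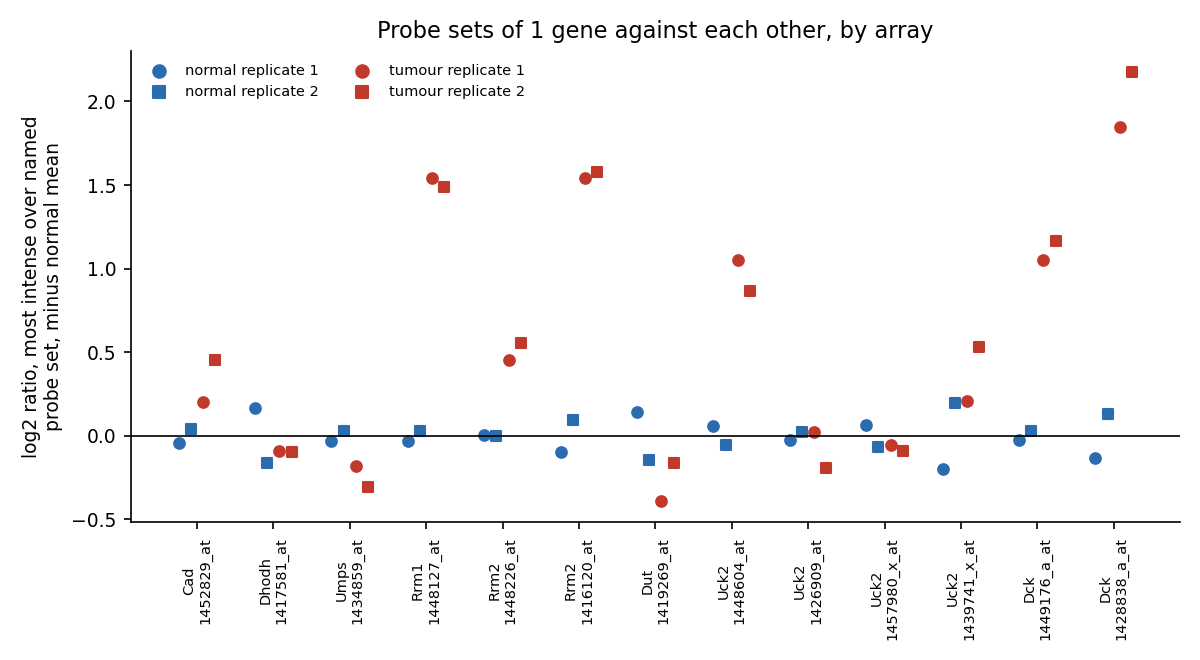
Log2 ratio of a gene's most intense probe set to each of its other probe sets above background, on each array, minus the mean of the normal arrays (vertical axis; blue normal, red tumour). Both tumour arrays sit well above the normal ones for the pairs of Rrm1, Rrm2 and Dck and for 1 pair of Uck2, and near 0 for Dhodh and for probe set 1426909_at of Uck2.

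The paralogs of several members were read beside them. Ctps2, the second CTP synthase, went against Ctps. It read 485.6 and 576.1 on the normal and 170.6 and 158.0 on the tumour arrays, a log2 fold change of -1.69 ± 0.14, or 3.22-fold lower (limma adjusted p = 1.71e-05), while its 2 other probe sets were dim and did not pass. Uck1, the second uridine-cytidine kinase, fell while Uck2 rose, from 264.7 and 275.4 to 201.2 and 174.4 (-0.53 ± 0.14, adjusted p = 0.0241). Rrm2b, the small subunit used outside S phase, read 135.1 and 162.0 against 157.5 and 176.2 and did not pass (0.17 ± 0.17, adjusted p = 0.564). Tk2, the mitochondrial thymidine kinase, read 102.6 and 93.17 against 165.1 and 124.2 and did not pass either (0.55 ± 0.20, adjusted p = 0.0861).

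Of 12 other measured genes of nucleotide synthesis, 4 rose and 2 fell, with a median of 0.05. Dctd, which deaminates dCMP to dUMP, rose by 1.61 ± 0.41 from 18.18 and 13.70 to 55.60 and 41.64 (limma adjusted p = 0.0182). Dtymk, the thymidylate kinase, rose by 0.74 ± 0.074 (adjusted p = 6.44e-05), and 1 of its 2 other probe sets rose by 0.47. Nme1, a nucleoside diphosphate kinase, rose by 1.07 ± 0.077 on its representative probe set and stood at -1.56 ± 0.13 on another, so its direction was not settled. Tyms, the thymidylate synthase, was dim on the probe sets that carry its symbol alone, at 60.18 and 58.73 against 74.53 and 39.07, and did not pass (-0.14 ± 0.33).

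Of 7 other salvage genes, 0 rose and 2 fell, with a median of -0.22. Besides Uck1, the one that fell was Dguok, a mitochondrial kinase of purine deoxynucleosides, from 329.5 and 336.8 to 122.5 and 71.05 (-1.84 ± 0.23, limma adjusted p = 0.000327). Of 4 nucleoside transporters, 0 passed in either direction. Breakdown and hydrolysis was split, with 5 of 13 genes higher and 4 lower and a median of 0.35. Among the 4, Nt5c3b stood at -0.86 ± 0.11 on its representative probe set but was called higher on another (0.37 ± 0.11, adjusted p = 0.0439). Its direction was thus not settled. Upb1, the last enzyme of pyrimidine breakdown, rose by 2.54 ± 0.32 from 21.02 and 15.93 to 92.08 and 122.3 (adjusted p = 0.000307). Nt5e, the ectonucleotidase CD73, was not above background in normal cells (10.62 and 7.72) and read 36.10 and 32.42 in tumour cells, at least 2.44-fold higher (adjusted p = 0.0287). The other probe sets of Nt5e lay near or below background and did not pass. Samhd1, which degrades dNTPs and is abundant in myeloid cells, rose by 1.04 ± 0.29 (adjusted p = 0.0295) on its most intense probe set. The next one, nearly as intense, gave 0.87 ± 0.29 and did not pass (adjusted p = 0.0604), and another gave 0.14 ± 0.42. Myeloid markers rose in the same arrays as given above, and their part in the values of Samhd1 was not tested. Nt5c2, a cytosolic nucleotidase, fell by 1.19 on the log2 scale (SE 0.14, adjusted p = 0.00023) on the probe set that represents it, whereas a dimmer one gave -0.01.

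Purine, replication and mitosis genes were measured beside the members on the same arrays. The shares over all genes were 16.3% higher and 11.7% lower, and 30.6% and 26.9% at a mean log2 of at least 7. Of 14 genes of purine synthesis and salvage, 10 rose and 1 fell, with a median of 0.61. The largest rises were those of the salvage enzyme Aprt (1.83 ± 0.092) and of Atic (1.76 ± 0.081). Of 30 DNA replication genes, 13 rose and 5 fell, with a median of 0.25. Mcm2, a subunit of the replicative helicase, rose by 1.74 ± 0.16 and the flap nuclease Fen1 by 0.98 ± 0.080. Of 22 mitosis genes, 3 rose and 11 fell, with a median of -0.34, although the proliferation marker Mki67 rose by 1.97 ± 0.086 and Cenpe by 1.37 ± 0.14. The median of the members lay between those of the purine and replication lists, and these differences between lists were not tested. On the scale of the hybridization controls every median is lower by 0.60, and that of all genes moves from 0.09 to -0.51.

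**Figure D4:**
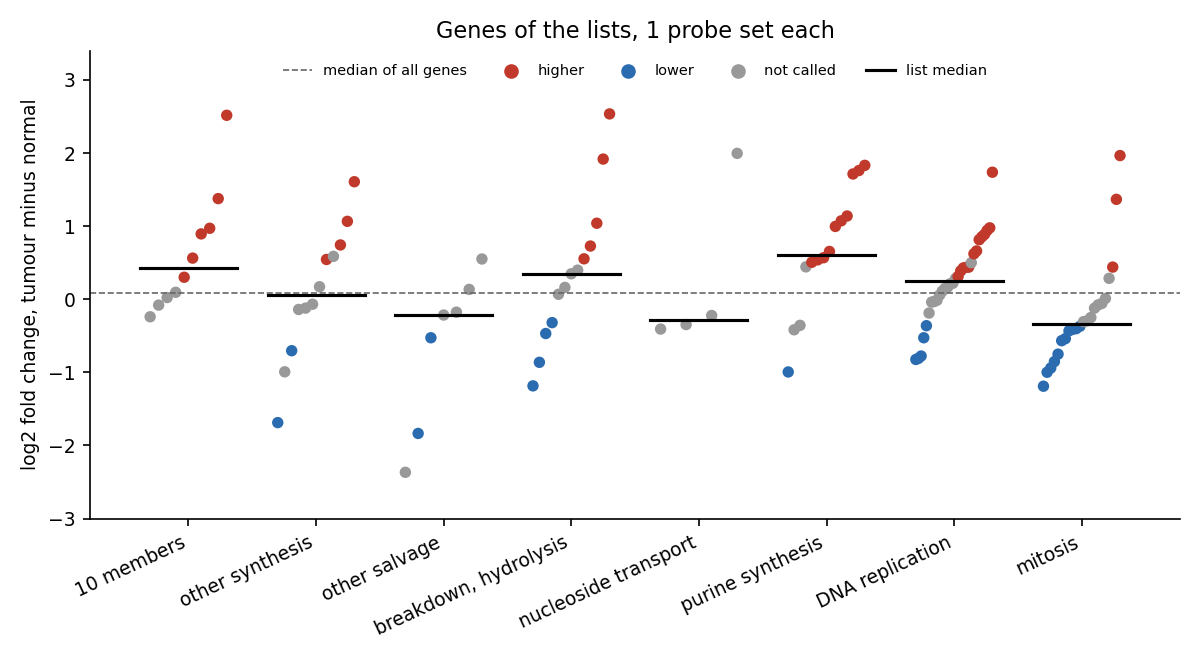
Log2 fold change, tumour minus normal, of each measured gene (1 probe set per gene) in the members, 4 further pathway lists and 3 comparison lists; points are coloured by call, solid bars are list medians and the dashed line is the median of all genes. The members reach from -0.24 to 2.52 and none was called lower on its most intense probe set, while salvage and mitosis genes lie mostly below the line; scaling to the hybridization controls lowers every point by 0.60, which turns the medians of the members and of the other synthesis, breakdown and replication genes below 0.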

How the data were processed

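Total RNA (100 ng) was converted to biotin-labelled cRNA and hybridized to 4 arrays, as the labels' protocols state. For every probe set, the table deposited by the authors holds a linear intensity on each array (0.08 to 19270), and the 4 arrays had nearly the same distribution. The submitters' processing notes name RMA, without a version; values below 1 are unusual for RMA, so the summary method is not settled. Log2 was taken here, with no offset or filter. Probe sets were named from GEO's platform annotation (34945 with 1 symbol, 932 with several, 9160 with none), and only those with 1 symbol stood for genes. Symbols were checked by Entrez number against a RefSeq table (18032 of 18193 matched, 0 changed).

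Limma 3.58.1 (R 4.3.3; lmFit and eBayes with trend and robust) was fitted to all 45037 non-control probe sets, with Benjamini-Hochberg adjustment at 0.05. This prior was chosen because the median replicate SD (log2) was 1.31 in the dimmest 25% of probe sets and 0.10 in the brightest 25%. On simulated data for the tumour against normal comparison over 45037 probe sets it recovered 48% of probe sets changed by 0.5 and 98% of those changed by 1 (log2), with 11 false calls. Changes were put only on probe sets with a mean log2 of at least 7. Each simulated SD followed the level alone, which is what this prior assumes. The few false calls were thus built in and cannot show how the prior does on the real arrays. The number of arrays limits the precision. An array's background level was the highest of its 27 bacterial control probe sets (12.3 to 17.8). The members, the gene lists and the tests were chosen with earlier results of these data known. Named genes were all members, the paralogs, and per list up to 4 (pathway) or 2 (comparison) called genes with the largest change. Tyms, Nt5c3b, Rbl1, Mycn, the values of E2f2, the markers, and the further probe sets of Nt5c2, Nme1, Nfyb, Samhd1 and Nt5e were added after their values were seen.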

Additional observations from a re-analysis of the deposited data

How the results depend on the processing

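Array medians, renewed quantile normalization, an offset of 16, both filters on dim probe sets, a threshold of 0.01 and 1 probe set per gene changed no call of a member gene. Limma's default prior gave 0 higher member genes, 0 and 0 member probe sets and 0 and 0 of all probe sets (higher and lower), with 5479 and 5858 at an unadjusted p below 0.05. With that prior and 1 probe set per gene, 2 member genes were higher. Scaling to the hybridization controls gave 3 higher and 5 lower member genes, 6 and 11 member probe sets and 2074 and 11539 of all probe sets. Under it Rrm1 was -0.038, Rrm2 -0.51, Tk1 -0.58, Dut -0.30 and probe set 1448604_at of Uck2 -0.59. A fold minimum of 0.5 (log2) gave 3 higher member genes, 6 higher member probe sets, and 2227 and 2243 of all probe sets. Without the _x_at, _s_at and _a_at classes, which leaves 17 member probe sets and none of Dck, 1 member gene was lower (Rrm2 at -0.41), with 5 and 3 member probe sets and 3267 higher over all. Of 2 alternatives chosen after seeing the data, averaging the probe sets of a gene gave 3 lower member genes (Rrm1 at -0.20, Rrm2 at -0.59, Dck at -1.28). The second most intense probe set gave 2 higher and 3 lower (Rrm1 at -0.95, Rrm2 at -0.41, Dck at -1.35). Leaving out 1 array in turn gave 4 to 6 higher member genes, 7 to 10 higher and 5 lower member probe sets, and 3325 to 3983 higher (fewest without tumour replicate 2, then 3336 without tumour replicate 1) and 3184 to 4386 lower probe sets over all (fewest without normal replicate 1, then 3309 without normal replicate 2). With the replicate block, 1 member gene was lower (Dck, adjusted p = 6.49e-05), and no other member gene changed its call. The differences between replicates 1 and 2 correlated at 0.25 between the groups, but 2 numbers cannot show that the samples are paired. Apart from these constructions, the cause of each change was not tested.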

Other observations

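Transcription factors known to act on nucleotide and replication genes were measured on the same arrays. Of 16 such regulators, 3 were higher (Myc, E2f1 and E2f3) and 4 lower (E2f2, Rb1, Rbl2 and Nfya), with a median of -0.07. Over all genes the shares were 16.3% higher and 11.7% lower, and 30.6% and 26.9% at a mean log2 of at least 7. Myc, known to drive Cad and other nucleotide genes, read 146.0 and 159.3 on the normal and 1097 and 992.5 on the tumour arrays, a log2 fold change of 2.78 ± 0.12 (limma adjusted p = 4.38e-07). E2f3, an activating E2F factor, was higher by 1.46 ± 0.17 (adjusted p = 0.000174), while its other probe set did not pass. Rb1 and Rbl2, repressors of E2F targets, stood at -1.30 ± 0.11 and -1.28 ± 0.11 (adjusted p = 1.8e-05 and 2.4e-05). Rbl1, of the family of Rb1 and Rbl2, did not pass on its most intense probe set (0.04 ± 0.089). Another Rbl1 probe set was higher (0.99 ± 0.15, adjusted p = 0.000787). E2f2, of the family of E2f3, was lower on both of its probe sets (-1.18 ± 0.098 and -1.15 ± 0.11). Mycn did not pass on its most intense probe set. Its dimmest one was lower (adjusted p = 0.017) and not above background on either tumour array. Nfya, the subunit of NF-Y that contacts CCAAT, was named after its values were seen and stood at -0.87 ± 0.13 (adjusted p = 0.000729). Nfyb did not pass on its most intense probe set (-0.26 ± 0.10) but was lower on its other one (-0.78 ± 0.12, adjusted p = 0.0012). Nfyc (0.06 ± 0.088) did not pass.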
